A study of Mus musculus with 21 samples.

Results

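The cytosolic ribosomal protein genes were examined across 7 populations of mouse bone marrow myeloid progenitors. They were chosen by name: protein-coding genes of the count table whose symbol is Rpl or Rps with a number, plus Rplp0, Rplp1, Rplp2 and Rpsa, without the Rps6k kinases and without pseudogenes. This gave 85 of the 47643 genes of the table, of which 77 are standard ribosomal proteins (46 of the large subunit, among them the 3 P stalk proteins, and 31 of the small subunit) and 8 are paralogs of one of these. No measured value entered the choice.

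The cytosolic ribosome is built from a small subunit, which reads the mRNA, and a large subunit, which joins amino acids. The standard genes are expressed in every growing cell, and their mRNAs typically begin with a run of pyrimidines, the 5′ terminal oligopyrimidine (TOP) motif, through which mTORC1 signalling controls their translation. Heterozygous loss of several of these genes causes Diamond-Blackfan anaemia, a failure of red cell production from marrow progenitors.

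All cells came from C57/B6 mice and were sorted as lineage-negative, SCA-1-negative, C-KIT-positive, CD34-positive progenitors. Common myeloid progenitors (CMPs) were negative for CD16/32 and granulocyte-monocyte progenitors (GMPs) positive, and each was divided by surface CD62L, an adhesion receptor. The populations were bulk CMP, CD62L-low CMP, CD62L-high CMP, bulk GMP, CD62L-neg GMP, CD62L-low GMP and CD62L-high GMP, with 3 low-input RNA-seq libraries each, 21 in all. CD62L-neg GMPs were the least stained GMPs, and CD62L-low and CD62L-high GMPs were the lower and upper ends of the remaining cells. Nothing states that the 3 libraries of a population came from separate mice, so p-values measure only the spread between these libraries, which may be technical. The bulk gates include the cells that the CD62L gates divide.

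Library totals ran from 6145834 to 15263573 counts. Fcgr3, a CD16/32 gene, lay at 6.54 to 15.7 CPM (counts scaled to a common library size) in the CMP populations and at 131 to 190 CPM in the GMP populations. Bulk CMP replicate 2 stood apart, with 61.0% of its counts in 3 gene models (Gm23935, Gm26917 and Gm42418), against 22.4% to 41.1% elsewhere. The next highest, CD62L-high GMP replicate 1 at 41.1%, also stood apart from its fellows at 29.5% and 27.8%, with 52.2% of its counts in protein-coding genes against 63.7% and 65.2%.

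Sequence around the transcription start is shown for members that the results turn on, because it holds the TOP motif (RefSeq, GRCm38.p6, 15 bases before and after the start, runs of at least 6 C or T in capitals).
Rps6: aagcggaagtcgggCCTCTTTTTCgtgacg (chr4:86857353-86857382, minus strand)
Rplp2: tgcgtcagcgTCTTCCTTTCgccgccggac (chr7:141447636-141447665, plus strand)
Rpl15: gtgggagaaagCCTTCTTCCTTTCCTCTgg (chr14:18270972-18271001, minus strand)
Rps27l: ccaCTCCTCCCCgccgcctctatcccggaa (chr9:66946071-66946100, plus strand)
Rpl36al: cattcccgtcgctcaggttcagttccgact (chr12:69184053-69184082, minus strand)
Rpl7l1: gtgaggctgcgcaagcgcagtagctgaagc (chr17:46782642-46782671, minus strand)
Rps6, Rplp2 and Rpl15 carried such a run across the start. In the paralog Rps27l the run ended before the start, so it lies outside an mRNA that begins there. The paralogs Rpl36al and Rpl7l1 carried none in these windows, and a further RefSeq start of Rps27l carried none either. Presence of a run on either side of the start did not separate paralogs from standard members. A run of at least 8 C or T, searched as described next, was found in 3 of 8 paralogs (Rps27l, Rpl22l1 and Rpl39l) and 30 of 57 standard members, and was not found in Rpl10, Rps2, Rplp0 or Rps13. Promoters of 65 of the 85 members were in the RefSeq table. In each search a gene counted when any of its starts matched. A run of at least 8 C or T was sought within 25 bases of the start on the sense strand. It was found in 33 of these 65 (50.8%), against 22.3% of all 27025 genes. The letters CTTTC occurred within 50 bases of the start on the sense strand in 34 of 65 (52.3%), against 14.6%, and CCGGAAG, which is part of an ETS site, occurred on either strand anywhere in the window of 250 bases before to 50 after the start in 26 of 65 (40%), against 9.93%. A match describes letters only.

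The summed counts of the 85 genes made up between 3.78% and 7.70% of protein-coding counts. Means were 5.69% ± 1.66 in bulk CMP, 6.16% ± 1.01 in CD62L-low CMP, 6.58% ± 0.60 in CD62L-high CMP, 6.32% ± 0.08 in bulk GMP, 6.80% ± 0.78 in CD62L-neg GMP, 6.53% ± 0.29 in CD62L-low GMP and 6.23% ± 0.31 in CD62L-high GMP (SD, n = 3). The ranges of the 7 populations overlapped one another. Bulk CMP replicate 2 gave the lowest share, 3.78%, and without it the mean of bulk CMP was 6.64% ± 0.20 (n = 2). CD62L-low CMP replicate 3 gave the next lowest, 5.0%. Small subunit genes made up 41.7% to 44.3% of the member counts in every library.

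**Figure D1:**
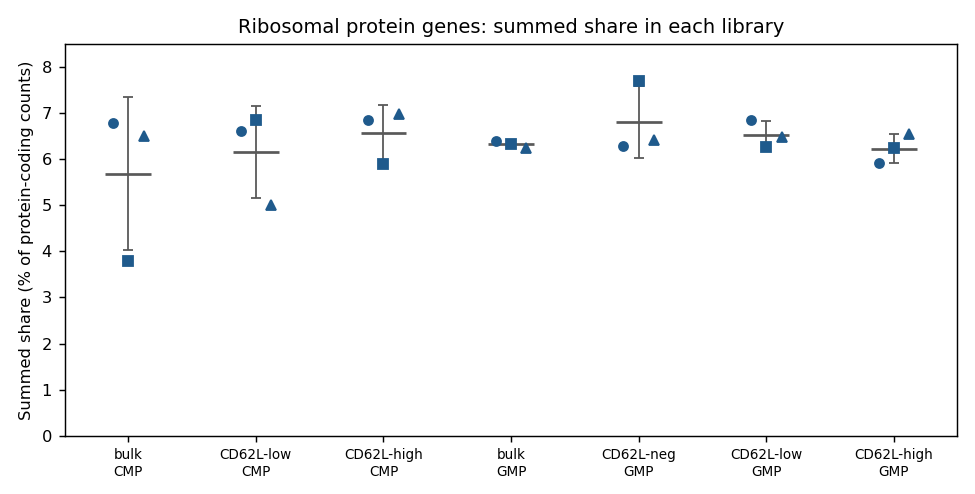
Summed counts of the 85 cytosolic ribosomal protein genes as a percentage of protein-coding counts, for each of 21 libraries in 7 populations; circles, squares and triangles are replicates 1, 2 and 3, the horizontal line is the mean and the bar 1 SD. The 2 lowest points are bulk CMP replicate 2 at 3.78% and CD62L-low CMP replicate 3 at 5.0%.

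The share of counts from mitochondrially encoded genes moved opposite to this sum inside the populations. In 7 of 7 populations the library with the highest ribosomal protein share had the lowest mitochondrial share, and in 6 of 7 the library with the lowest ribosomal protein share had the highest. The part of the mitochondrial share in the results was not tested.

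Of the 85 genes, 82 passed the filter on low counts and entered the fit of 14801 genes. Rpl10l had 0 counts in all libraries, Rpl39l 2 and Rpl3l 56, and these 3 paralogs are known from testis (Rpl10l and Rpl39l) and muscle (Rpl3l). The tested members spanned 0.385 to 2324 CPM in their mean over libraries, with a median of 391 CPM, and 73 lay above 100 CPM. Per kilobase of transcript, the highest mean levels included those of Rplp1 (2222 CPM per kb), Rpl26 (1468), Rplp0 (1349) and Rpl32 (1305). Rplp0 and Rplp1 belong to the P stalk, which recruits elongation factors, and the others to the ribosomal body. Rpl24 was at the low end, with 95 counts over all 21 libraries. The overlapping gene model Gm28037 covers 71.5% of its exon bases on the same strand and had 0 counts, so the level of Rpl24 is uncertain.

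Most members have processed copies in the genome. Of their 50-base transcript stretches, a median of 49.2% recurred in other genes, all 82 tested members had a copy among pseudogenes, and the share was at least 80% for 17 members and under 20% for 9. The median SD within populations on the log2(CPM + 1) scale was 0.38 for the 17 and 0.21 for the 9, and levels per kilobase were 479.7 and 401 CPM per kb. Reads that match several genes cannot be placed by sequence, so values of the 17 are less certain.

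Levels varied little between populations. The highest population mean exceeded the lowest by a median of 1.47-fold, and this ratio was under 2 for 73 of the 82 tested genes. The lowest mean fell in bulk CMP for 45 genes and in CD62L-low CMP for 20, and the highest in CD62L-neg GMP for 45. Single libraries weighed on these means. The median deviation of the members from the mean of all libraries (log2 of CPM + 1) was -0.88 in bulk CMP replicate 2, against 0.07 and 0.03 in its fellows. It was -0.41 in CD62L-low CMP replicate 3, against 0.004 and 0.05, and 0.34 in CD62L-neg GMP replicate 2, against 0.10 and 0.09. The median SD of the population means on the log2(CPM + 1) scale was 0.22 for the members and 0.26 for protein-coding genes of at least 20 CPM, while the median SD within populations was 0.30 for the members and 0.23 for the same genes. In the test of any difference among the 7 populations, 10 of 82 members passed, against 39.0% of all genes tested: Rplp1, Rplp0, Rpl15, Rpl36al, Rpl7l1, Rpl7a, Rps2, Rps13, Rps27l and Rps27rt.

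Bulk GMPs were compared with bulk CMPs to follow the step from CMP to GMP. The median log2 fold change of the members was 0.25, against 0.00 over all genes. With a trend with transcript length removed, the median of the members was -0.03, against -0.10 over all genes. Without that removal, 6 of 82 passed as higher, against 9.72% of all genes. None passed as lower, against 10.9%. The 6 were Rpl36al and Rpl7l1, paralogs of Rpl36a and Rpl7, together with Rps13, Rps6, Rpl35a and Rplp0. The call of Rps6 was lost in 17 of the 21 fits that left out 1 library, and that of Rpl35a in 8. Rps6 is the small subunit protein phosphorylated by S6 kinase. No member passed at a fold above 2, which 11.5% of all genes did. For 26 of 82 members every bulk GMP library was above every bulk CMP library, against 19.0% of all genes.

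Rpl36al (ENSMUSG00000049751.6, chr12:69182731-69184083, GRCm38) gave 83, 36.8 and 84.7 CPM in bulk CMP and 148, 129 and 129.8 CPM in bulk GMP. All bulk GMP libraries exceeded all bulk CMP libraries, by 1.96-fold (log2 fold change 0.97 ± 0.22 (SE), adjusted p = 0.00236, edgeR). Its relative Rpl36a gave 304, 99.6 and 294 CPM in bulk CMP and 305, 299 and 293 CPM in bulk GMP (log2 fold change 0.36 ± 0.26 (SE), adjusted p = 0.352, edgeR), which did not pass. Whether the 2 genes differ in their change was not tested. The coding sequences of this pair share 87.9% of 321 bases.

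Rpl7l1, a large subunit paralog named for Rpl7, gave 52.3, 25.4 and 54.3 CPM in bulk CMP and 85.5, 91.5 and 84.2 CPM in bulk GMP (log2 fold change 0.96 ± 0.20 (SE), adjusted p = 0.00142, edgeR). Again the libraries did not overlap, and the low value of bulk CMP replicate 2 widened the difference. Rpl7 itself gave 682, 259 and 700.1 and 779, 779 and 789.8 CPM (log2 fold change 0.51 ± 0.23 (SE), adjusted p = 0.122, edgeR). Without bulk CMP replicate 2, 3 of the 6 genes remained called, Rpl36al, Rpl7l1 and Rps13, and the median of the members was 0.05. Rps13 gave 38.5, 39.2 and 58.1 CPM in bulk CMP and 83.2, 76.5 and 91.4 CPM in bulk GMP (log2 fold change 0.88 ± 0.25 (SE), adjusted p = 0.0133, edgeR). It shares 83.0% of its 50-base stretches with pseudogenes.

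**Figure D2:**
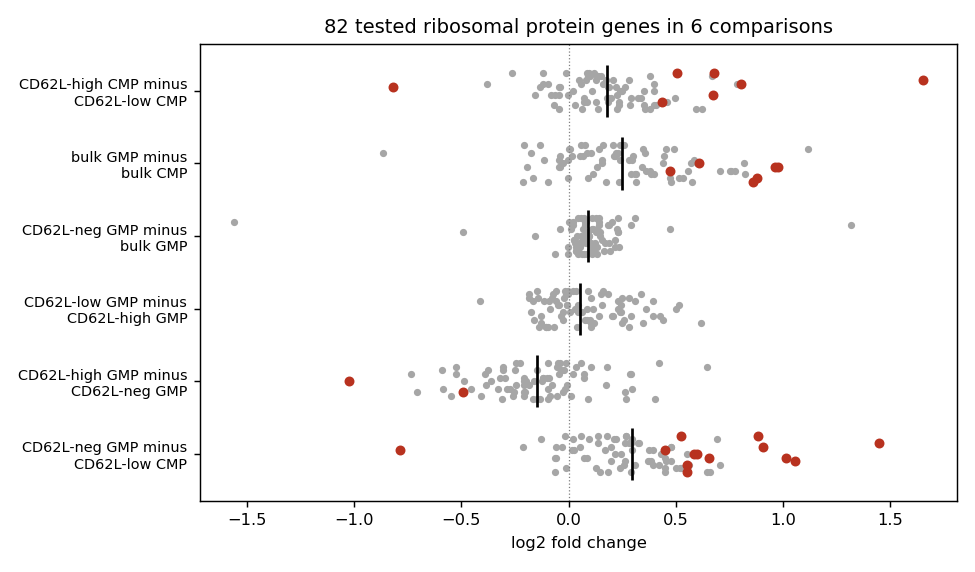
Log2 fold change of each of the 82 tested ribosomal protein genes in 6 comparisons (first population minus second); red points passed an adjusted p of 0.05, grey points did not, and the black line is the median of the members. Medians lie between -0.15 and 0.30, and few points are red.

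CD62L-high CMPs were compared with CD62L-low CMPs to see how CD62L divides the CMP gate. The median log2 fold change of the members was 0.18, against 0.01 over all genes, with 6 of 82 higher, against 9.94% of all genes, and 1 lower, against 7.27%. The higher genes were Rpl7a, Rps27, Rps27l, Rpl36al, Rplp1 and Rps2, and the lower gene was Rps27rt. Only Rpl7a passed at a fold above 2, against 10.5% of all genes; its libraries ran 32.8, 29.2 and 36.1 CPM in CD62L-low CMP and 93.5, 34.9 and 179.9 CPM in CD62L-high CMP, and they overlapped. Rpl7a shares 81.2% of its 50-base stretches with 120 other genes, nearly all pseudogenes, so its counts are uncertain. Without CD62L-low CMP replicate 3, 0 members were called higher, and the median of the members was 0.01.

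Rps27l, a p53-responsive relative of Rps27, gave 12, 16.3 and 13.1 CPM in CD62L-low CMP and 24, 18.5 and 23.9 CPM in CD62L-high CMP. Every CD62L-high library was above every CD62L-low library, by 1.60-fold (log2 fold change 0.68 ± 0.19 (SE), adjusted p = 0.0132, edgeR). It lay between 20 and 28.9 CPM in the other 5 populations, so CD62L-low CMPs were the low population for this gene. Rplp1 gave 757, 936 and 619 CPM and 1116, 994 and 1167 CPM in the same order (log2 fold change 0.50 ± 0.16 (SE), adjusted p = 0.0262, edgeR). Rps2, a small subunit protein near the mRNA entry, gave 515, 615 and 479.6 CPM and 718, 662 and 798 CPM (log2 fold change 0.44 ± 0.14 (SE), adjusted p = 0.0348, edgeR).

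Rps27 and Rps27rt moved in opposite directions here, and their coding sequences are shown, with that of Rps27l, because those of Rps27 and Rps27rt are identical. Bases that differ from Rps27 are in capitals.
Rps27: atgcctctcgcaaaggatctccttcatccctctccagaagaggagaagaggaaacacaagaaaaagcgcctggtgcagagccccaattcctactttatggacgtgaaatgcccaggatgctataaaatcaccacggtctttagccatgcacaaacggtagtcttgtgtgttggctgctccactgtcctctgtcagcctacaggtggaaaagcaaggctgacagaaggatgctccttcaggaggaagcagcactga
Rps27rt: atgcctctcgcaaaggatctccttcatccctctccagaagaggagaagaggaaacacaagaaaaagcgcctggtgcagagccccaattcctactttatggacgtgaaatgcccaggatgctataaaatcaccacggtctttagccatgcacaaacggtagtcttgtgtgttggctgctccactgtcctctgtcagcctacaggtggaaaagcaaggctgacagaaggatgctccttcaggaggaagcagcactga
Rps27l: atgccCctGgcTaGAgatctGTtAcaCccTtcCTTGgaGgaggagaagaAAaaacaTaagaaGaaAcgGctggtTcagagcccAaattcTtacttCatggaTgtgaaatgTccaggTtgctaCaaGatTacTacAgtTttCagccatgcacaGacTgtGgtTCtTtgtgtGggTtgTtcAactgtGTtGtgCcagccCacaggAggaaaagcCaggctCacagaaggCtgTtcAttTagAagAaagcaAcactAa
Rps27 lies at chr3:90212522-90213651 and Rps27rt at chr9:114982366-114982739 (GRCm38). Rps27rt is the same as Rps27 at 255 of 255 coding bases, and Rps27l at 194 of 255. Reads from this stretch cannot be assigned to Rps27 or Rps27rt by sequence. Rps27 gave 95.7, 96.1 and 63.5 CPM in CD62L-low CMP and 133, 136 and 177 CPM in CD62L-high CMP (log2 fold change 0.81 ± 0.26 (SE), adjusted p = 0.0357, edgeR). Rps27rt gave 114, 125 and 85.7 CPM and 62.6, 50.5 and 70.8 CPM in the same order (log2 fold change -0.82 ± 0.28 (SE), adjusted p = 0.0427, edgeR). Their sum was 193 ± 38.5 CPM in CD62L-low CMP and 210.1 ± 33.3 CPM in CD62L-high CMP (SD, n = 3), and the fit on summed counts gave a log2 fold change of 0.10 ± 0.17 (SE), adjusted p = 0.79 (edgeR). Rps27rt took 54.4% to 57.4% of the sum in CD62L-low CMPs, 27.0% to 32.1% in CD62L-high CMPs, and 24.0% to 66.2% among the 3 bulk GMP libraries.

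**Figure D3:**
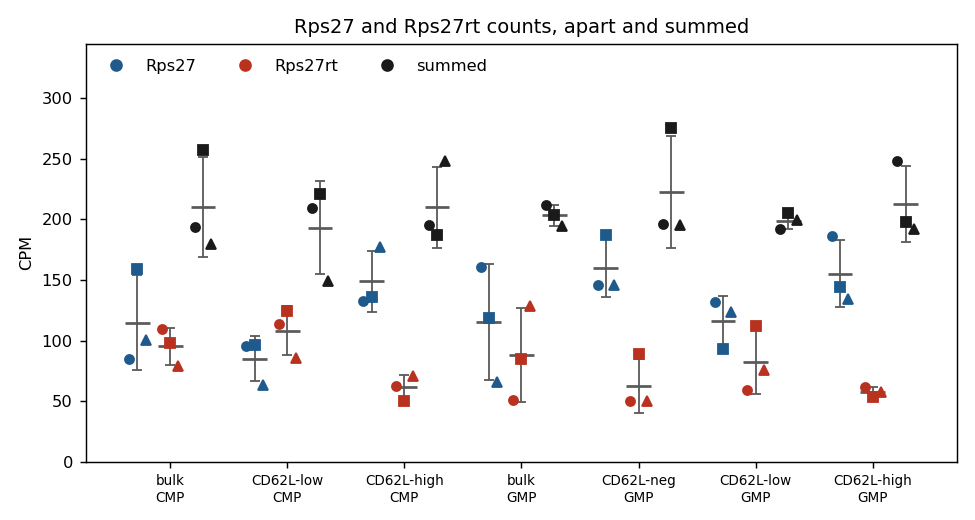
CPM of Rps27 (blue), Rps27rt (red) and their sum (black) in 21 libraries of 7 populations; symbols are replicates 1, 2 and 3 (circle, square, triangle), lines are means and bars 1 SD. The population means of the sum lie between 193 and 223 CPM, while the 2 parts trade places between CD62L-low and CD62L-high CMPs.

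CD62L-neg GMPs were set against CD62L-low CMPs, the CD62L-poor cells of both gates. This comparison held the most calls: 12 of 82 members were higher, against 11.7% of all genes, and 1 was lower, against 9.77%, with a median of 0.30 against -0.01 over all genes. Rpl36al rose 2.02-fold (log2 fold change 1.01 ± 0.22 (SE), adjusted p = 0.00125, edgeR), from 75.9, 74.9 and 53.9 CPM to 136, 139.6 and 138 CPM, and Rps27l rose 1.84-fold (log2 fold change 0.88 ± 0.19 (SE), adjusted p = 0.00129, edgeR). The others were Rpl7a, Rps27a, which is made as a ubiquitin fusion, Rps27, Rpl7l1, Rpl15, Rpl35a, Rpl10, Rps2, Rplp1 and Rplp2, and Rps27rt was the lower one. Rpl7a, Rps27a and Rpl36al passed at a fold above 2, which 12.6% of all genes did. After a trend with transcript length was removed, the median of the members was 0.030, against -0.07 over all genes. The calls there were 2 higher and 3 lower, against 20.7% of all genes in either direction. In 39 of 82 members every CD62L-neg GMP library was above every CD62L-low CMP library, against 20.6% of all genes. Without CD62L-low CMP replicate 3 the count of calls was 3 higher and 1 lower. Bulk CMP replicate 2 is in neither group but enters the shared spread. Without it the count was 31 higher and 1 lower, against 25.3% of all genes in either direction. Erythroid marker genes summed to 182 to 213 CPM in CD62L-low CMPs and 15.9 to 28.5 CPM in CD62L-neg GMPs, and megakaryocyte markers to 629 to 741 and 113 to 139 CPM; their part in the result was not tested. In bulk samples a different mix of cells and a different level per cell cannot be told apart.

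CD62L-high GMPs were compared with CD62L-neg GMPs. The median log2 fold change of the members was -0.15, against -0.04 over all genes, with 2 of 82 lower, against 8.65% of all genes, and 0 higher, against 8.28% (1 higher at an unadjusted p under 0.05, against 13.6%, and 1 by DESeq2, Rplp1). In 19 members every CD62L-high library was below every CD62L-neg library, against 17.0% of all genes. The 2 called genes were Rpl15 and Rps28. Rpl15, a large subunit protein whose loss causes Diamond-Blackfan anaemia (chr14:18267823-18271391, GRCm38), gave 91.4, 96.3 and 107 CPM in CD62L-neg GMP and 55.4, 43.1 and 46.7 CPM in CD62L-high GMP. The groups lay far apart, and the level was 2.03-fold lower in CD62L-high GMP (log2 fold change -1.02 ± 0.22 (SE), adjusted p = 0.00138, edgeR; 95% interval -1.47 to -0.58). It was the one member past a fold of 2, against 10.5% of all genes. The call held in each of the 21 fits that left out 1 library. Rps28 gave 154, 182 and 173 CPM and 116, 130.3 and 116 CPM (log2 fold change -0.49 ± 0.16 (SE), adjusted p = 0.0343, edgeR). The monocyte markers summed to 49.1 to 67.3 CPM in CD62L-neg GMPs and 1356 to 1643 CPM in CD62L-high GMPs; their part in the result was not tested.

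The P stalk genes Rplp0 and Rplp1 had their highest population means in CD62L-high GMP. Rplp1 gave 1013, 1298 and 1013 CPM in CD62L-neg GMP and 1717, 1382 and 1356 CPM in CD62L-high GMP (log2 fold change 0.42 ± 0.16 (SE), adjusted p = 0.0666, edgeR), which did not pass. Rplp0 gave 1739, 2126 and 1819.9 CPM and 2672, 2198 and 2108 CPM (log2 fold change 0.30 ± 0.16 (SE), adjusted p = 0.243, edgeR), and Rplp2 1019, 1181 and 996 CPM and 925, 964 and 1050.4 CPM (log2 fold change -0.12 ± 0.14 (SE), adjusted p = 0.642, edgeR). Without CD62L-high GMP replicate 1 the means were 1369 CPM for Rplp1 and 2153 CPM for Rplp0 (n = 2), and the adjusted p-values were 0.264 and 0.581 (edgeR).

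Across populations Rpl15 ran 61.8, 61 and 66.5 CPM in bulk CMP, 60.3, 78.6 and 55.4 in CD62L-low CMP, 89.3, 71.5 and 70.6 in CD62L-high CMP, 71.4, 109 and 107 in bulk GMP and 99.6, 48.3 and 57.3 in CD62L-low GMP. Libraries of CD62L-low GMP spread from the CD62L-high to the CD62L-neg GMP level. In CMPs the difference between CD62L-high and CD62L-low was not called (log2 fold change 0.25 ± 0.21 (SE), adjusted p = 0.522, edgeR). The difference between the 2 contrasts was itself tested, and Rpl15 was the only one of 82 members to pass, against 7.35% of all genes (log2 fold change -1.27 ± 0.30 (SE), adjusted p = 0.0089, edgeR). Without bulk CMP replicate 2, 13 members passed, Rpl15 among them, each with a negative difference, against 11.3% of all genes. In a fit of only the 4 populations in these contrasts 9 passed, against 9.12%, and without the filter on low counts 14, against 5.65%.

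**Figure D4:**
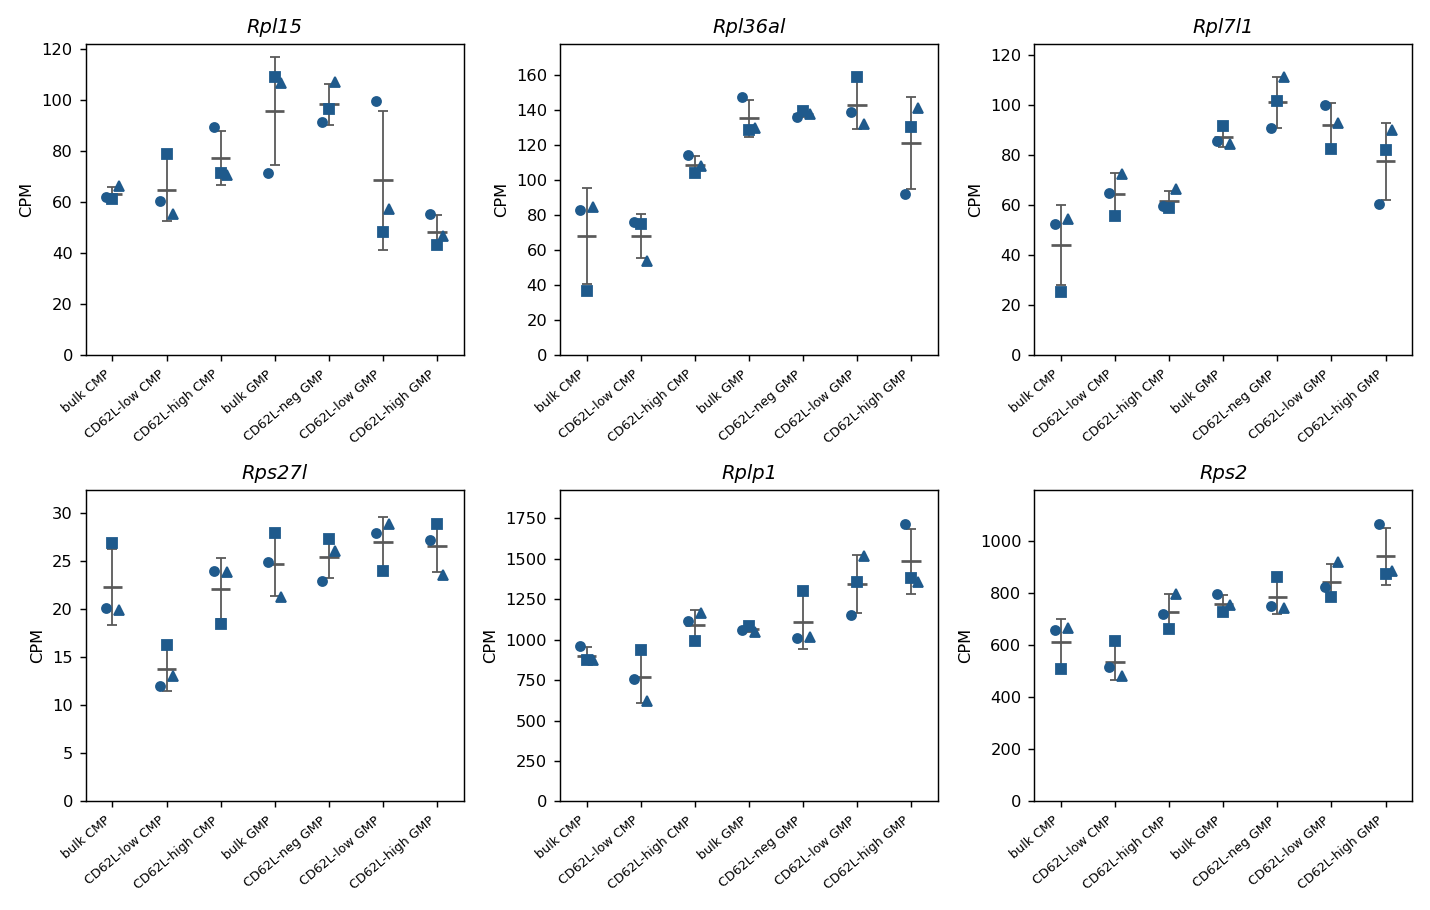
CPM in each library of 6 ribosomal protein genes in 7 populations; circles, squares and triangles are replicates 1, 2 and 3, the line is the mean and the bar 1 SD, and each vertical axis starts at 0. Rpl15 is lowest in CD62L-high GMP (43.1 to 55.4 CPM), while Rplp1 is highest there (1356 to 1717 CPM).

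No member was called between CD62L-neg GMPs and bulk GMPs: 0 of 82 passed by edgeR in either direction, against 6.33% of all genes, 1 had an unadjusted p under 0.05, against 16.6%, and DESeq2 also called 0. The median of the members was 0.09, and for 75 of 82 the 95% interval lay within a 2-fold change either way. CD62L-low and CD62L-high GMPs gave 0 calls as well, against 2.03% of all genes, with 1 at an unadjusted p under 0.05, against 13.0%, and 0 by DESeq2; the fit was edgeR's. There the interval lay within 2-fold for 71 of 82.

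Mean levels of the paralogs over the 7 populations were as follows (CPM, SD, n = 3). Rpl36al was at 68.2 ± 27.2 in bulk CMP, 68.3 ± 12.4 in CD62L-low CMP, 109 ± 5.09 in CD62L-high CMP, 135 ± 10.6 in bulk GMP, 138 ± 1.76 in CD62L-neg GMP, 143 ± 13.9 in CD62L-low GMP and 121 ± 26.1 in CD62L-high GMP. Every GMP mean of Rpl36al was above every CMP mean, and each GMP mean lay within the larger SD of its neighbour in order. Rpl7l1 was at 44 ± 16.1 in bulk CMP, 64.3 ± 8.54 in CD62L-low CMP, 61.4 ± 4.12 in CD62L-high CMP, 87.1 ± 3.93 in bulk GMP, 101 ± 10.1 in CD62L-neg GMP, 91.7 ± 8.93 in CD62L-low GMP and 77.4 ± 15.4 in CD62L-high GMP. All its CMP means were below all its GMP means. Rps27l was at 22.3 ± 3.97 in bulk CMP, 13.8 ± 2.26 in CD62L-low CMP, 22.1 ± 3.18 in CD62L-high CMP, 24.7 ± 3.31 in bulk GMP, 25.5 ± 2.24 in CD62L-neg GMP, 27 ± 2.6 in CD62L-low GMP and 26.6 ± 2.7 in CD62L-high GMP. Above CD62L-low CMP, each mean lay within 1 SD of the next. Rps14, a small subunit gene tied to anaemia in human 5q deletion, ran from 225 to 417 CPM over the 21 libraries and was called in none of the 6 comparisons; after a trend with transcript length was removed it was called lower in bulk GMP than in bulk CMP (log2 fold change -0.51, adjusted p = 0.00323, edgeR).

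Of the 5 paralogs that passed the filter, Rpl36al, Rpl7l1, Rps27l and Rps27rt were called somewhere and Rpl22l1 in none of the 6 comparisons. Rpl22l1 ran from 31.7 to 52.6 CPM over the 21 libraries, and its relative Rpl22 from 144 to 543 CPM, the lowest being bulk CMP replicate 2. Of the 77 standard members, 4 were called in CD62L-high against CD62L-low CMPs, 4 in bulk GMP against bulk CMP and 9 in CD62L-neg GMP against CD62L-low CMP, where 17.2%, 20.6% and 21.5% of all genes were called in either direction. Of the 19 Diamond-Blackfan anaemia genes among the members, 1 was called in the first of these (Rps27), 1 in the second (Rpl35a), 3 in the third (Rps27, Rpl15 and Rpl35a) and 2 in CD62L-high against CD62L-neg GMP (Rpl15 and Rps28), where 16.9% of all genes were called. These counts are at or below the shares over all genes.

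Other translation genes were counted the same way, with log2 fold changes ± SE in parentheses. Over all genes, 9.72% were higher and 10.9% lower in bulk GMP against bulk CMP, and 11.7% and 9.77% in CD62L-neg GMP against CD62L-low CMP. Of 77 tested mitochondrial ribosomal protein genes, 17 were higher and 0 lower in bulk GMP against bulk CMP, with a median of 0.43, and 17 and 0 in CD62L-neg GMP against CD62L-low CMP, with a median of 0.40. Without bulk CMP replicate 2 the former became 8 higher and 1 lower, against 8.27% and 8.03% of all genes in that fit. Of 35 initiation factor genes, 9 were higher in bulk GMP against bulk CMP, among them Eif2b4 (1.21 ± 0.29, adjusted p = 0.0041, edgeR), and 4 without bulk CMP replicate 2. Of 99 tested ribosome assembly genes, 8 were higher and 1 lower there, and 4 and 0 without that library. In CD62L-high against CD62L-neg GMP 5 assembly genes were lower, against 8.65% of all genes, among them Tsr3 (-1.12 ± 0.28, adjusted p = 0.00682, edgeR), which modifies 18S rRNA. Without CD62L-high GMP replicate 1, whose assembly genes held 0.882% of protein-coding counts against 1.57% and 1.56% in its fellows, 1 assembly gene was lower. Of 18 tested mTORC1 and TOP control genes, 2 rose and 1 fell from CD62L-low to CD62L-high CMP, against 9.94% and 7.27% of all genes, with a list median of -0.19. The higher genes were Larp1, which binds TOP mRNAs (0.51 ± 0.13, adjusted p = 0.00815, edgeR), and Mtor, the kinase of mTORC1 (0.48 ± 0.16, adjusted p = 0.0375, edgeR). The lower gene was Pdcd4, an inhibitor of translation initiation (-0.83 ± 0.23, adjusted p = 0.0153, edgeR). Of 17 tested p53 target genes, 6 were lower and 0 higher in bulk GMP against bulk CMP, also without bulk CMP replicate 2, and 4 were lower and 2 higher in CD62L-high against CD62L-low CMP. Fau, which encodes a small subunit protein outside the naming rule, was called in CD62L-neg GMP against CD62L-low CMP (0.54 ± 0.18, adjusted p = 0.0369, edgeR), and Rack1 in none of the 6. Of 111 tested genes named as ribosomal protein pseudogenes, 3 were higher and 1 lower in CD62L-neg GMP against CD62L-low CMP.

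Other genes with short transcripts had lower levels in each CMP population than in each GMP population. The members were lowest on average in bulk and CD62L-low CMP, but not in every library there. Within GMPs the 2 sets went opposite ways, the short genes being higher and the members lower in CD62L-high than in CD62L-neg GMP. Over 284 other protein-coding genes with transcripts of at most 1000 bases and at least 20 CPM, the median deviation from the mean of all libraries (log2 of CPM + 1) averaged -0.26 in bulk CMP, -0.30 in CD62L-low CMP, -0.07 in CD62L-high CMP, 0.09 in bulk GMP, 0.10 in CD62L-neg GMP, 0.19 in CD62L-low GMP and 0.30 in CD62L-high GMP. The members gave -0.26, -0.12, 0.04, 0.08, 0.18, 0.09 and 0.03 in the same order. The bulk CMP average of the members included replicate 2 at -0.88, with 0.07 and 0.03 in its fellows. That of CD62L-low CMP included replicate 3 at -0.41, with 0.004 and 0.05 in its fellows. Removing the length trend moved the CD62L-high minus CD62L-neg GMP median of the members from -0.15 to -0.27, with -0.04 over all genes in both fits. Genes over 5000 bases averaged between -0.04 and 0.07. The part of transcript length in the results was not tested beyond the following fit. After a length trend was removed, 2 members were higher and 7 lower in bulk GMP against bulk CMP, and 2 higher and 3 lower in CD62L-neg GMP against CD62L-low CMP. In each, 20.7% of all genes were called in either direction. Rpl36al and Rpl7l1 remained the higher genes in both, and Rpl15 kept its calls in CD62L-high against CD62L-neg GMP and in the difference between contrasts.

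**Figure D5:**
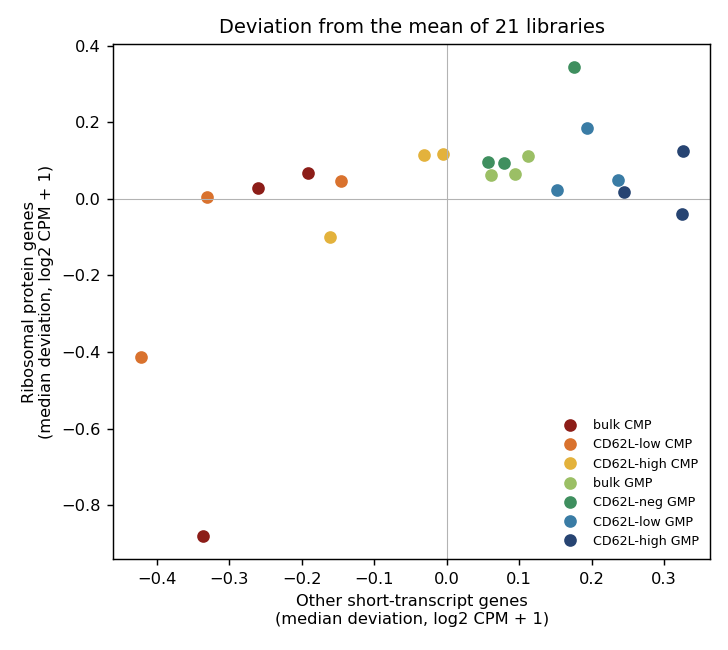
Median deviation from the mean of 21 libraries, on the log2(CPM + 1) scale, of 82 ribosomal protein genes (vertical axis) against 284 other protein-coding genes with transcripts of at most 1000 bases (horizontal axis), 1 point a library, coloured by population. All CMP libraries lie left of 0 and all GMP libraries right of it; bulk CMP replicate 2 is lowest at -0.88.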

How the data were processed

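Counts per gene were those deposited by the authors, made with HTSeq after trimming (Trim Galore) and alignment to mm10 with HISAT2 (bcl2fastq before that); versions are not given in the sources used here, nor whether counting used strand. The labels name a SMARTer stranded kit and the study's methods a SMART-Seq ultra low input kit. According to its methods, the study dropped 1 poorly mapped bulk CMP library, which is not named; all 21 were used here. Gene names came from the GENCODE annotation and sequences from RefSeq (GRCm38.p6).

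Counts were fitted with edgeR 4.0.16 (R 4.3.3; quasi-likelihood test, TMM scaling, genes filtered at a minimum count of 10, all 21 libraries and 7 population means in 1 fit), with Benjamini-Hochberg adjustment over 14801 genes, and calls were made below an adjusted p of 0.05. limma 3.58.1 was loaded with edgeR. DESeq2 1.42.0, which the authors used, was an alternative, beside other scalings, no filter, smaller fits, the replicate number as a block, and each library left out. Scripts were tested on simulated data. CPM values used TMM-scaled library sizes, and totals per library give the depth behind every value; intervals and SDs rest on 3 libraries. All pairs of replicates differed beyond sampling noise (chi-square per degree of freedom 6.07 to 186).

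Genes named were the 5 most raised and the 5 most lowered called members of each comparison, all paralogs with their standard relatives, the 5 highest per length, the called Diamond-Blackfan anaemia genes, Rps14, and at most 2 called genes in each direction of each other list. Members named beyond this, such as Rps2, Rplp0 and Rplp2, were chosen after their values were seen. The members and lists were chosen with earlier results of these data known. Some members and checks that the rule would name are not reported here.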

Additional observations from a re-analysis of the deposited data

Results flagged for a closer look

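Rpl15 differed in its response to the CD62L sort between GMPs and CMPs. The test of the difference between the 2 contrasts gave a log2 fold change of -1.27 ± 0.30 (SE), adjusted p = 0.0089 (edgeR). In GMPs every CD62L-high library was below every CD62L-neg library (log2 fold change -1.02 ± 0.22 (SE), adjusted p = 0.00138, edgeR), and in CMPs the difference was 0.25 ± 0.21 (SE), adjusted p = 0.522 (edgeR). CD62L-neg GMPs and CD62L-low CMPs are not the same gate, so the contrasts compare different cuts of CD62L staining. No group had enough libraries for a test of outlying samples.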

How the results depend on the processing

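Of 638 values for 20 named results, 0 changed direction, 517 kept their call and 121 lost it. Rpl15 (CD62L-high against CD62L-neg GMP, and the difference between contrasts), Rpl36al and Rpl7l1 (bulk GMP against bulk CMP) kept theirs throughout. Counts of members called moved more, and the cause was not tested. Comparisons are named as first minus second, and counts are of members called.

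Without the filter on low counts, bulk GMP minus bulk CMP gave 24 higher and 1 lower, CD62L-neg GMP minus bulk GMP 1 higher (also 1 past a fold of 2), CD62L-low minus CD62L-high GMP 1 higher, CD62L-high minus CD62L-neg GMP 8 lower, CD62L-neg GMP minus CD62L-low CMP 26 higher, the difference between contrasts 14 and any difference 37. Calls over all genes in either direction were 13.1%, 4.53%, 2.33%, 10.4%, 12.9%, 5.65% and 27.7% in the same order. With library totals in place of TMM, CD62L-high minus CD62L-low CMP gave 3 higher and 0 lower, bulk GMP minus bulk CMP 3 past a fold of 2, CD62L-high minus CD62L-neg GMP 1 lower with a median of -0.29, CD62L-neg GMP minus CD62L-low CMP 2 higher, 0 lower and 0 past a fold of 2, any difference 5, and the CD62L-low minus CD62L-high GMP median was 0.19; this scaling moved the median of all genes to 0.24 in bulk GMP minus bulk CMP, 0.13 in CD62L-low minus CD62L-high GMP and -0.18 in CD62L-high minus CD62L-neg GMP. Scaling by DESeq2 size factors and over protein-coding genes each gave 3 higher in bulk GMP minus bulk CMP. DESeq2 gave 1 higher in CD62L-high minus CD62L-neg GMP and 0 past a fold of 2 in CD62L-neg GMP minus CD62L-low CMP. The fit of only the populations being compared gave 29 higher in CD62L-neg GMP minus CD62L-low CMP and 9 for the difference between contrasts. Over all genes, 29.9% and 9.12% were called there in either direction. As a share of all counts, the CD62L-low over CD62L-high GMP ratio was 1.14. The replicate block left 0 lower in CD62L-high minus CD62L-low CMP. Replicate numbers are shared by label only: 0 of 3 correlations of same-numbered libraries exceeded 0.1 in any comparison (-0.031 to 0.055).

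Some alternatives were chosen after seeing the data. With Rps27 and Rps27rt summed, 0 were lower in CD62L-high minus CD62L-low CMP and in CD62L-neg GMP minus CD62L-low CMP. Without bulk CMP replicate 2 and CD62L-low CMP replicate 3, bulk GMP minus bulk CMP gave 3 higher, CD62L-high minus CD62L-neg GMP 2 higher and 12 lower, CD62L-neg GMP minus CD62L-low CMP 0 past a fold of 2, the difference between contrasts 8 and any difference 21. Calls over all genes there were 16.4% and 21.1% in the first 2 comparisons, 9.07% for the difference between contrasts and 38.2% for any difference. With the length trend removed, CD62L-high minus CD62L-low CMP gave 1 higher and 2 past a fold of 2, bulk GMP minus bulk CMP 2 higher and 7 lower with a median of -0.03, CD62L-high minus CD62L-neg GMP 0 past a fold of 2 with a median of -0.27, CD62L-neg GMP minus CD62L-low CMP 2 higher, 3 lower and 1 past a fold of 2 with a median of 0.030, and any difference 20. Calls over all genes there were 17.1%, 20.7%, 17.7%, 20.7% and 39.6% in the same order. The 3 medians over all genes were -0.10, -0.04 and -0.07. Adding pseudogene counts to the summed share, also chosen then, moved no ratio beyond its spread.

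With each library left out in turn, CD62L-high minus CD62L-low CMP gave 0 to 11 higher, 0 to 1 lower, 0 to 1 past a fold of 2 and a median of 0.01 to 0.24. The higher count was 11 without bulk CMP replicate 2, 2, 3 and 0 without CD62L-low CMP replicates 1, 2 and 3, and 1 and 0 without CD62L-high CMP replicates 1 and 3. Bulk GMP minus bulk CMP gave 2 to 12 higher, 0 to 6 past a fold of 2 and a median of 0.05 to 0.40. The higher count was 12 without bulk CMP replicate 3, 2 without bulk GMP replicate 3, and 3 without bulk CMP replicate 2, bulk GMP replicate 2, CD62L-neg GMP replicate 3 or any CD62L-high CMP replicate. CD62L-low minus CD62L-high GMP gave a median of 0.0175 to 0.13. CD62L-high minus CD62L-neg GMP gave 0 to 2 higher, 1 to 9 lower, 0 to 1 past a fold of 2 and a median of -0.21 to -0.08. The lower count was 9 without bulk CMP replicate 2 and 1 without CD62L-neg GMP replicates 2 or 3 or CD62L-high GMP replicates 1 or 3. CD62L-neg GMP minus CD62L-low CMP gave 3 to 31 higher, 0 to 1 lower, 0 to 3 past a fold of 2 and a median of 0.16 to 0.41. The higher count was 31 without bulk CMP replicate 2, 7 and 3 without CD62L-low CMP replicates 1 and 3, and 7, 3 and 6 without CD62L-neg GMP replicates 1, 2 and 3. The difference between contrasts gave 1 to 13 (13 without bulk CMP replicate 2) and any difference 8 to 27 (27 without it).

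Precision rests on 3 libraries a group. The 95% interval lay within a 2-fold change either way for 75 of 82 members in CD62L-neg GMP minus bulk GMP and 71 in CD62L-low minus CD62L-high GMP. A change inside the interval of a member was not excluded here.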
